A study of Gallus gallus with 9 samples.

Results

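The genes described here are the 200 chicken genes that were expressed highest in both EGK.X blastoderms and PGCs relative to CEFs, out of 24356 genes in the count tables. They were chosen by measured values, namely the deposited normalized counts (normalized CPM, which are CPM values on library sizes adjusted by TMM factors). The score of a gene was log2 of the lowest of its 6 EGK.X and PGC values plus 1, over the highest of its 3 CEF values plus 1. The 154 DNA repair, apoptosis, and pluripotency regulating genes of the study's own lists were left out, and the 200 highest scores among the other 24202 genes were taken. A high score therefore needs every blastoderm library and every PGC library to lie above every CEF library, and the difference from CEFs is the criterion of choice and not a result.

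The 9 libraries came from untreated White Leghorn chickens, with 3 biological replicates for each of 3 sources. CEFs are adherent fibroblasts grown to passage 2 from 5 embryos per replicate at HH stage 28 (embryonic day 6), without internal organs and limbs. For EGK.X blastoderms, 10 embryos were taken from newly laid eggs per replicate and dissociated. PGCs were enriched from the gonads of HH stage 28 embryos with magnetic beads and an antibody to SSEA-1, a surface antigen of chicken germ cells. The PGC replicates used 484, 658, or 684 gonads, and the share of other gonadal cells in the enriched fraction is not known from the sources used here, although the authors stained cells of each replicate for SSEA-1. Between 29512715 and 67475925 reads per library were counted on genes.

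The blastoderm at this stage is a disc of mostly pluripotent cells from which every tissue of the embryo arises, and it already holds the first germ cells. In birds the germ line is set aside by maternally inherited germ plasm. The PGCs later travel through the blood to the gonads. They keep transcription factors of pluripotency such as NANOG and Pou5f3 switched on after the surrounding body cells have silenced or lowered them. Fibroblasts are differentiated cells of connective tissue and serve here as the somatic reference.

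NANOG and Pou5f3 (POUV) show the pattern that the score looks for, although they belong to the lists left out. NANOG, a homeodomain factor of the core pluripotency network, had normalized CPM of 683, 671, and 567 in the EGK.X blastoderms, 150, 146, and 140 in the PGCs, and 0.0399, 0, and 0 in the CEFs. Pou5f3, the chicken POU factor of the same network, had 446, 594, and 620 in the EGK.X blastoderms, 197, 207, and 157 in the PGCs, and 9.14, 8.11, and 10.5 in the CEFs. Had the listed genes been kept, NANOG would have ranked 3, Pou5f3 62, and UNG, a uracil DNA glycosylase of base excision repair, 131. These 3 were the only ones of the 154 that reached the threshold, and SOX2, which the paper counts in the same core network, was not among them. NANOG and Pou5f3 do not stand for the other pluripotency genes of those lists. Of these, the paper reports more lower than higher in PGCs against CEFs, and as many lower as higher in EGK.X blastoderms. Both pluripotency factors were present in every library labelled blastoderm or PGC. Other markers of germ cells, gonadal somatic cells, or fibroblasts could not be looked up, because no identifier of the 200 genes was paired with a name in the tables used here. The genes are therefore described by counts, ranges, and their place in the list, and 4 identifiers are given.

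**Figure D1:**
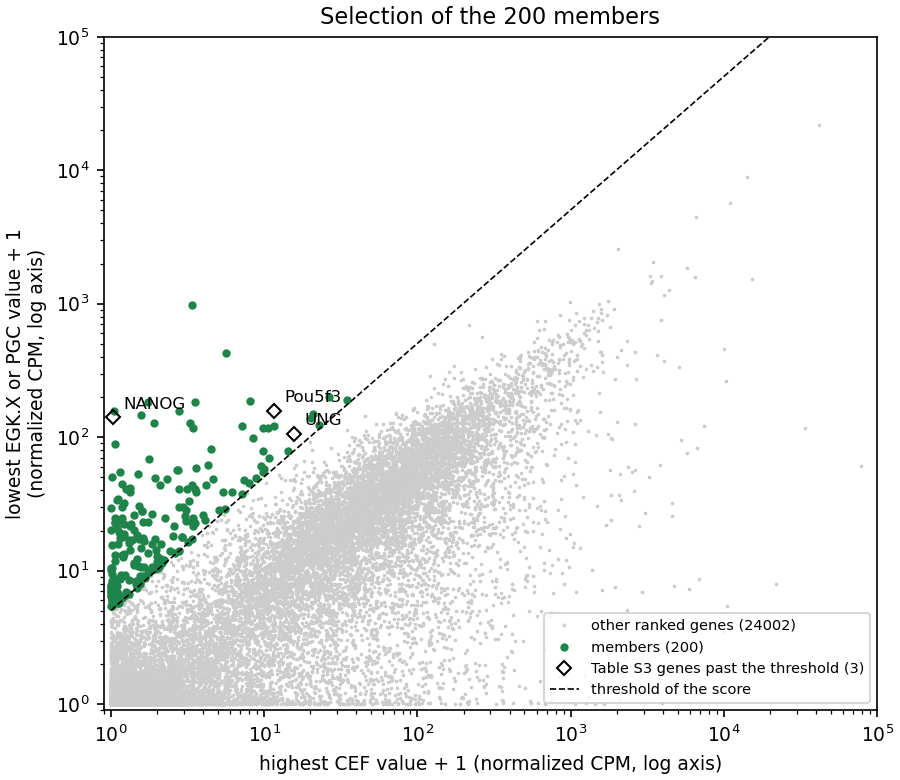
Lowest EGK.X or PGC value plus 1 against highest CEF value plus 1, in normalized CPM on log axes, for each ranked gene. The 200 members (green) lie above the dashed threshold at a ratio of 5.04, mostly at CEF values under 1, and diamonds mark NANOG, Pou5f3, and UNG, which were left out of the list.

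Scores in the list ran from 8.17 down to 2.33, with a median of 3.02, which stand for ratios of 288, 5.04, and 8.12. Of the 24202 ranked genes, 4125 (17.0%) had a score above 0, 807 (3.33%) a score above 1, and 267 a score above 2. No gap marked the end of the list, since its last 2 genes scored 2.34 and 2.33 and the first 2 genes outside it both scored 2.33. The last gene inside had 13.1 as its lowest EGK.X or PGC value and 1.80 as its highest CEF value, and the first gene outside had 9.30 and 1.05. All 200 genes had reads in at least 1 library and entered the fit, and each EGK.X or PGC library held at least 175 reads on each of them. In that fit all 200 were called higher in EGK.X blastoderms than in CEFs, against 23.1% of all genes tested, and all 200 higher in PGCs than in CEFs, against 23.7%. The score used both contrasts, so these counts were fixed by the choice of genes.

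Libraries that took no part in the choice gave a further reading of a score of the same form. They are replicates of the same sources and were normalized together with the others. The reading therefore describes how the score repeats between replicates, and it is no independent support for the list. A list of 200 was chosen on 2 replicate numbers of each group, and the score was then read in the 3 libraries of the number left out. That reading took the lower of 1 EGK.X and 1 PGC value over 1 CEF value, which is easier to pass than the score of the full list. The lists made without replicates 1, 2, and 3 shared 184, 186, and 177 genes with the 200 described here. In the libraries left out, all 200 genes of each such list scored above 0. Above 2 were 198 genes in the replicate 1 libraries, 197 in the replicate 2 libraries, and 192 in the replicate 3 libraries. The median score there was 3.35, 3.57, and 3.51, while the median of all ranked genes was -0.05, 0.00, and -0.03. The lowest single score was 0.02, in the replicate 1 libraries, and without that number the lowest was 1.20.

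Few of the genes were without any read in the fibroblasts, but most had low values there. Of the 200, 13 had no read in any CEF library, 35 had at most 3 reads in each, and 147 had at least 1 read in each. The highest CEF value of a gene had a median of 0.569 normalized CPM and was under 1 for 127 genes, from 1 to under 10 for 66, and 10 or more for 7. The gene with the highest CEF level had 30.1, 33.8, and 31.6 in the CEFs, 342, 342, and 287 in the EGK.X blastoderms, and 189, 203, and 205 in the PGCs. Against a floor of 3 reads per CEF library (0.0932 normalized CPM, the largest of the CEF floors), the 13 genes without CEF reads were at least 72.4-fold to at least 1133-fold higher in EGK.X blastoderms and at least 66.2-fold to at least 2477-fold higher in PGCs. The one of these 13 with the second highest score had 119.5, 131, and 66.1 normalized CPM in the EGK.X blastoderms and 23.1, 26.2, and 19.2 in the PGCs, with no overlap between the groups. The floor covers counting error only. In bulk RNA, fewer cells of a type and less RNA per cell cannot be told apart, so a low CEF value may belong to many cells or to few.

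**Figure D2:**
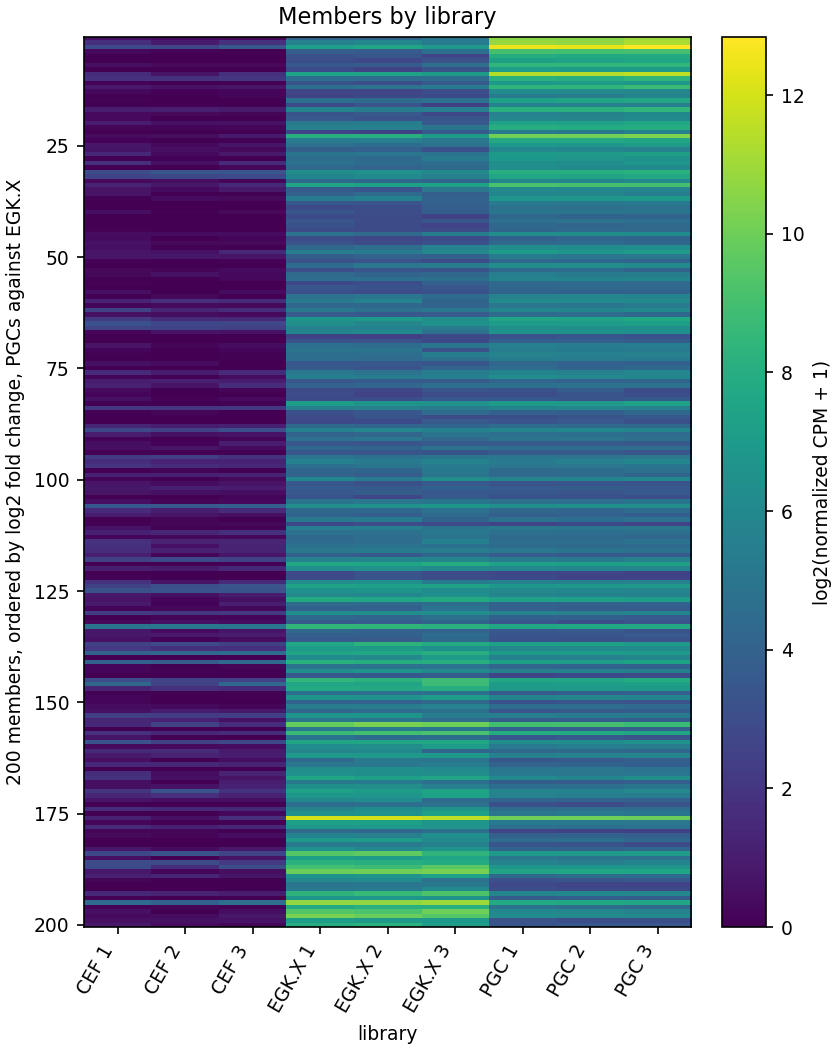
Expression of the 200 members as log2(normalized CPM + 1) in the 9 libraries, 1 row per gene, ordered by the log2 fold change of PGCs against EGK.X blastoderms. The 3 CEF columns are dark for nearly all genes, genes higher in PGCs are at the top, and genes higher in EGK.X blastoderms are at the bottom.

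The genes took a small share of the reads, which was higher in PGCs than in EGK.X blastoderms. Of the reads on genes, they held 2.30% to 2.52% in the EGK.X libraries, 3.30% to 3.56% in the PGC libraries, and 0.0214% to 0.0265% in the CEF libraries. Their summed level was 22346 ± 178 normalized CPM (SD, n = 3) in EGK.X blastoderms, 27928 ± 2347 (SD, n = 3) in PGCs, and 325 ± 31.1 (SD, n = 3) in CEFs. Every PGC library had a higher sum than every EGK.X library, and 1 gene decided that order on this scale. Without the gene most abundant in PGCs, the sums ran from 22100 to 22363 for the blastoderms and from 20934 to 23273 for the PGCs, and the groups overlapped. As a share of the reads on genes the order remained without it, with 2.63% to 2.71% for the PGCs, above every blastoderm library. Leaving out this gene was chosen after its values were seen.

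A few abundant genes made up most of these sums, and they were largely different genes in each source. The 10 most abundant genes of a library held 51.0% to 52.7% of the sum for the blastoderms and 58.0% to 62.4% for the PGCs. Of the 10 most abundant by group mean, 2 were common to both groups. The mean level reached 100 normalized CPM in both groups for 23 genes, in EGK.X blastoderms alone for 21, and in PGCs alone for 23. The median level of the 200 was 28.3 to 30.2 in the EGK.X libraries, 36.0 to 38.0 in the PGC libraries, and 0.249 to 0.479 in the CEF libraries. Across the 200 genes, the mean levels in both groups, as log2(normalized CPM + 1), had a Pearson's r of 0.48 and a Spearman's rho of 0.48. The 10345 genes with at least 100 reads in every EGK.X and PGC library had 0.74 and 0.73. Genes are not independent replicates, and the 200 were chosen by their lowest value in these groups. The values are therefore descriptions, and the difference between them was not tested.

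The gene with the highest score was also the most abundant of the 200 in EGK.X blastoderms. It had 4204, 4183, and 3050 normalized CPM there, 1038, 1038, and 971 in the PGCs, and 1.24, 0.497, and 2.38 in the CEFs. The PGC libraries all lay below the EGK.X libraries, and the fitted log2 fold change was -1.91 (standard error 0.31, adjusted p = 0.000189 by edgeR's quasi-likelihood test). The next gene of the list had 205, 187, and 250 in the EGK.X blastoderms and 162, 158, and 156 in the PGCs, with 1, 0, and 2 reads in the CEF libraries. Its levels in both sources were closer, with a log2 fold change of -0.43 and a 95% interval from -0.78 to -0.09. Every PGC library still lay below every EGK.X library (adjusted p = 0.0338 by edgeR's quasi-likelihood test).

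The gene most abundant in PGCs had 5565, 5322, and 7339 normalized CPM there, against 152, 186, and 120 in the EGK.X blastoderms and 6.37, 5.38, and 10.7 in the CEFs. Its log2 fold change was 5.31 (standard error 0.28, adjusted p = 2.26e-08 by edgeR). The second had 2605, 2632, and 3130 in the PGCs, 173, 167, and 126 in the EGK.X blastoderms, and 2.12, 0.622, and 2.28 in the CEFs. The score required both genes to be present in every blastoderm library, where their levels were far below those in PGCs. In bulk RNA of whole blastoderms, few cells with much of an RNA and many cells with little of it cannot be told apart. In EGK.X blastoderms the second most abundant gene had 1749, 1681, and 1963 normalized CPM, against 227, 221, and 201 in the PGCs and 21.6, 15.1, and 25.3 in the CEFs.

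PGCs were then compared with EGK.X blastoderms, a contrast that the score did not use, although it requires both sources to lie well above CEFs. Of the 200 genes, 58 were higher in PGCs and 46 were lower, at an adjusted p under 0.05 in edgeR's quasi-likelihood test and a log2 fold change beyond 1, and 96 were not called. The shares were 29.0% higher and 23.0% lower, against 23.4% and 18.5% of the 22698 genes tested, or 41.9% in either direction. Many of the genes tested had few reads. Among the 10345 genes with at least 100 reads in every EGK.X and PGC library, a minimum that all 200 met, 18.9% were called higher and 21.5% lower. The share of the 200 called lower was thus near this background, and the share called higher was above it. Against all genes tested, both shares were higher, so the comparison of the directions depends on the background. It also depends on the scaling, since upper-quartile factors gave 57 higher and 53 lower. None of these differences was tested. The background of genes with at least 100 reads shares only the minimum of reads with the list. The median standard error of the log2 fold change was 0.25 for the 200 genes and 0.19 for the background.

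The blastoderm and PGC values of a gene often did not overlap, in the list as among other genes. Every PGC library lay above every EGK.X library for 79 genes (39.5%) and below for 82 (41.0%), and the groups overlapped for 39. Over all genes tested these shares were 33.4% and 30.3%, and among the genes with at least 100 reads 34.2% and 42.4%. The share of the list without overlap was near that of genes with this minimum of reads, which are not matched to it in precision. The median size of the log2 fold change was 1.14 for the 200 genes, 1.22 for all genes tested, and 0.81 for the genes with at least 100 reads. The signed median was -0.082, against 0.033 for all genes tested. It was -0.17 for the genes with at least 100 reads, so the list lay between both backgrounds. The median of the 200 was 0.083 without EGK.X replicate 3. With library size alone in place of TMM factors it was 0.091, but the median of all genes rose by 0.18 with it, and the list stayed 0.12 below that median under both scalings.

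**Figure D3:**
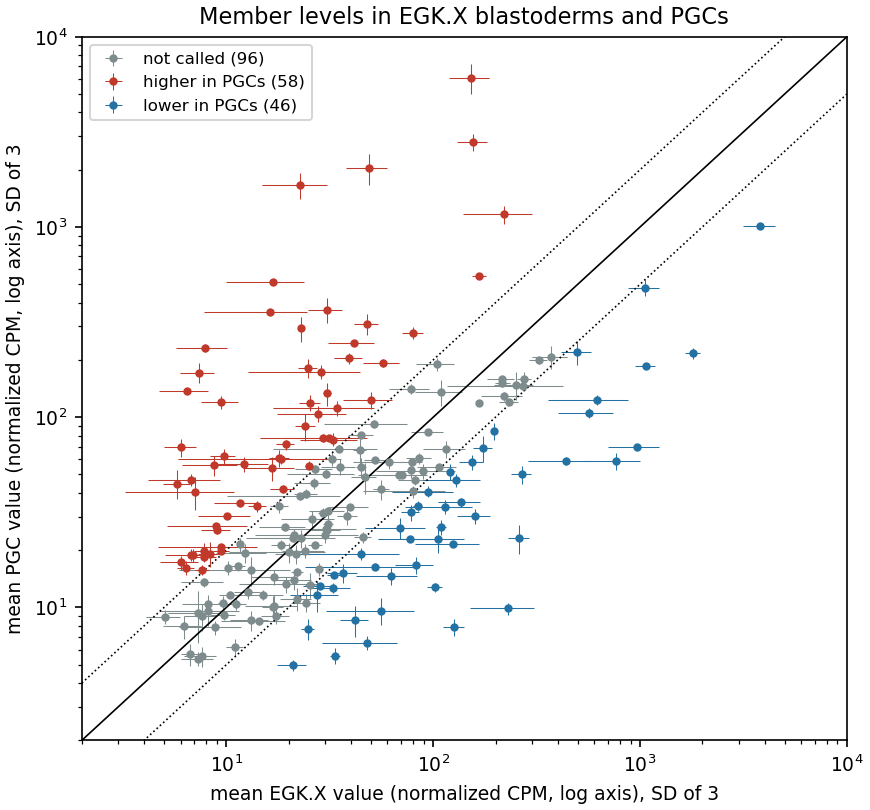
Mean PGC level against mean EGK.X level of the 200 members in normalized CPM on log axes, with SD bars over 3 replicates. The solid line marks equal levels and the dotted lines 2-fold differences, and 58 genes called higher in PGCs (red), 46 called lower (blue), and 96 not called (grey) spread to both sides of the line.

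The 58 genes higher in PGCs had a median log2 fold change of 1.90, and 13 of them exceeded 3. Their median level was 76.9 normalized CPM in PGCs and 17.4 in EGK.X blastoderms. They held 71.7% of the summed level of the 200 genes in PGCs and 8.02% of it in EGK.X blastoderms. The direction of this difference follows from the call. In PGCs the most abundant of them alone had a mean of 6075 of the summed 27928 normalized CPM.

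The largest of these differences was that of ENSGALG00000015544, a gene without a name in the tables used here. Its normalized CPM was 1534, 1482, and 1956 in the PGCs, 17.5, 18.9, and 31.8 in the EGK.X blastoderms, and 0.479, 0.342, and 0.238 in the CEFs. The levels formed 3 separate steps, with no overlap between the groups. The log2 fold change of PGCs against EGK.X blastoderms was 6.19 (standard error 0.28, adjusted p = 5.91e-09 by edgeR). ENSGALG00000048104 came next, with 1889, 1749, and 2468 in the PGCs, 48.2, 60.3, and 38.2 in the EGK.X blastoderms, and 2.36, 0.932, and 2.62 in the CEFs. Its log2 fold change was 5.38 (standard error 0.32, adjusted p = 5.02e-08 by edgeR), and no values of different groups overlapped.

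The 46 genes lower in PGCs mirrored them, with a median log2 fold change of -1.99, and 6 of them were below -3. Their median level was 111 normalized CPM in EGK.X blastoderms and 26.3 in PGCs. They held 67.6% of the summed level in EGK.X blastoderms and 12.4% of it in PGCs, and the call fixed this direction too.

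Of these genes, ENSGALG00000012623 fell furthest. It had 256, 290, and 141 normalized CPM in the EGK.X blastoderms, 9.10, 10.5, and 10.0 in the PGCs, and 0.838, 0.280, and 0.167 in the CEFs. EGK.X replicate 3 was well below the other blastoderm libraries but remained far above every PGC library. The log2 fold change of PGCs against EGK.X blastoderms was -4.54 (standard error 0.37, adjusted p = 7.47e-07 by edgeR). ENSGALG00000014687 had 143, 123, and 113 in the EGK.X blastoderms, 8.73, 7.12, and 7.88 in the PGCs, and 0.499, 0.466, and 0.547 in the CEFs. With closely spaced replicates in each group, its log2 fold change was -3.99 (standard error 0.16, adjusted p = 2.77e-09 by edgeR).

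**Figure D4:**
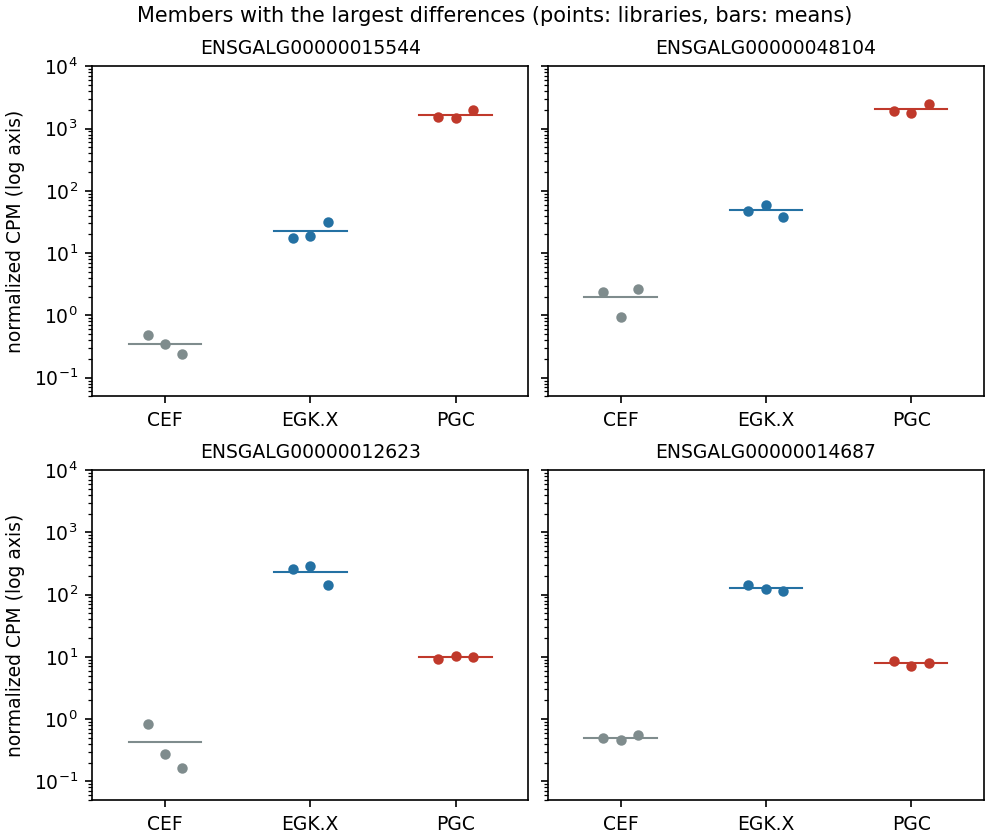
Normalized CPM on a log axis in each library (points) with group means (bars) for the 2 members highest in PGCs relative to EGK.X blastoderms (top) and the 2 lowest (bottom). In each panel the CEF values lie under 3 and the EGK.X and PGC values do not overlap.

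Between these extremes lay genes with smaller differences between both sources. For 40 genes (20.0%) the 95% interval of the log2 fold change was wholly within -1 and 1, which bounds the difference below 2-fold. The share was 16.9% of all genes tested and 35.9% of the genes with at least 100 reads in every EGK.X and PGC library, and these differences were not tested. Such a share depends on the width of the intervals. The median standard error was 0.25 for the 200 genes, 0.39 for all genes tested, and 0.19 for the genes with at least 100 reads. The 40 genes had median levels of 30.2 normalized CPM in EGK.X blastoderms and 28.2 in PGCs. For 11 of them the PGC and EGK.X values still did not overlap, so a difference below 2-fold does not mean equal levels. Values overlapped for 19.5% of the 200 genes, 36.3% of all genes tested, and 23.4% of those with at least 100 reads. They included 10 of the first 50 of the list and held 9.87% of the summed level in EGK.X blastoderms and 6.51% in PGCs. The other 56 genes that were not called had intervals reaching past a 2-fold difference, and their levels cannot be called alike.

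The balance of the calls differed along the list, and the difference was not tested. The ranks come from a score that uses the same EGK.X and PGC values as the calls, so both are not independent. Among the first 50 genes, 11 (22.0%) were higher in PGCs and 16 (32.0%) lower. Among the last 50, 16 (32.0%) were higher and 7 (14.0%) lower. The second 50 held 17 higher (34.0%) and 12 lower (24.0%), and the third 50 held 14 (28.0%) and 11 (22.0%). Of the genes with at least 100 reads in every EGK.X and PGC library, 18.9% were higher and 21.5% lower. The lowest of the 6 values that entered the score came from an EGK.X library for 108 genes and from a PGC library for 92, so both sources set the score about equally often.

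Replicates of the blastoderms differed more over these genes than those of the PGCs. The median SD between replicates, in log2(normalized CPM + 1), was 0.26 in EGK.X blastoderms, 0.11 in PGCs, and 0.15 in CEFs. Over all genes tested it was 0.14, 0.08, and 0.13. Many of those genes had few reads, and the added 1 shrinks the SD at low values, so this background is not matched in level. EGK.X replicate 3 stood furthest from its group, with a median distance of 0.39 from the mean of the other replicates, and it was the highest of the blastoderm libraries for 106 genes and the lowest for 67. The same distance was 0.19 and 0.28 for EGK.X replicates 1 and 2 and at most 0.16 for a PGC library. Without EGK.X replicate 3, 59 genes were called higher in PGCs and 46 lower. The CEF value that entered the score was counted under CEF replicate 1 for 100 genes, replicate 2 for 42, and replicate 3 for 58. The 100 include the 13 genes without a read in any CEF library, where all CEF replicates tie and none set the score alone. Genes without a read numbered 24, 42, and 33 in CEF replicates 1 to 3, and replicate 2 had the fewest reads of these libraries, 43511523.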

How the data were processed

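Total RNA of 9 samples was sequenced as ribosomal RNA-depleted stranded libraries. Per the methods and the submitters' processing notes, the authors trimmed reads with Trimmomatic 0.39, aligned them with HISAT2 2.2.0 to GRCg6a, and obtained counts per Ensembl gene with HTSeq-count. The strand setting is not given in the sources used here, and reads of overlapping or antisense genes may be lost or counted on the wrong gene. The authors also deposited a signal per gene, which are CPM values on library sizes adjusted by TMM factors, and a recomputation from the counts matched it within 3.25e-06%. The 5 summary rows of the counting (46.6% to 51.5% of records) were left out.

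The score used the deposited signal with a pseudocount of 1. Counts of the 22698 genes with a read in any of the 9 libraries were fitted by edgeR 4.0.16 under R 4.3.3 (TMM factors, quasi-likelihood test, Benjamini-Hochberg adjustment over all genes, no replicate block), after a test on simulated data. A standard error is the absolute log2 fold change divided by the root of its F statistic, and 95% intervals use the test's degrees of freedom. The paper names the likelihood ratio test, used here as an alternative beside DESeq2 1.42.0, limma 3.58.1, other scalings and filters, and leaving out libraries. Identifiers printed are the called members with the 2 largest rises and falls and a minimum of 100 counts throughout the group with higher values. The members and lists were chosen with earlier results of these data known. The RefSeq table of GRCg7b genes used here pairs no Ensembl identifier with a name, for these or any other genes, so marker lists, positions, and sequences were not used here. The comparison with genes of at least 100 reads and the lists chosen on 2 replicate numbers were added after seeing the data.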

Additional observations from a re-analysis of the deposited data

How the results depend on the processing

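The alternatives were other scalings, filterByExpr, the likelihood ratio test, DESeq2, limma, the fit without CEFs, and each library left out. Under them, the numbers of genes higher (58) and lower (46) in PGCs than in EGK.X blastoderms stayed within 1.5 times their values. The 4 genes given by identifier kept their direction and call. With a library left out, 56 to 59 were higher and 45 to 48 lower. Library size alone gave 67 higher and 41 lower, upper-quartile factors 57 and 53, and the fit without CEFs 58 and 49. The adjusted p alone went past the limit of 1.5 times, as it called 70 lower. The median log2 fold change, -0.082, was -0.14 with upper-quartile factors, -0.042 with the replicate number as a block, and 0.091 with library size alone, which raised the median of all genes by 0.18. It ran from -0.17 to 0.083 over the fits without a library, the highest without EGK.X replicate 3. The block gave 60 higher and 46 lower. Same-numbered EGK.X and PGC libraries did not deviate together (r = -0.06, -0.04, and -0.14), and differently numbered ones ran from -0.20 to 0.22. With so few libraries, these correlations cannot show whether same-numbered samples were handled together.

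The list itself depended on the pseudocount. With 10 in place of 1 it shared 130 genes with the 200, with 0.1 it shared 137, with group medians 174, with library size alone 185, and with 1 library left out 185 to 198. A minimum of 100 reads in every EGK.X and PGC library could remove none of the 200, since each had at least 175. A pseudocount of 10 lowers the score of genes with few reads. Depth limits the CEF values most, where 3 reads are the floor.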

Other observations

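Genes just below the threshold gave similar counts. Of the next 200 genes by score, 52 (26.0%) were higher in PGCs than in EGK.X blastoderms and 54 (27.0%) were lower. The same edgeR test was used, and 94 were not called. Over all genes tested these shares were 23.4% and 18.5%. With at least 100 reads in every EGK.X and PGC library they were 18.9% and 21.5%. The next 200 had a median log2 fold change of -0.12. For 35 of them (17.5%) the 95% interval lay wholly within -1 and 1, against 16.9% and 35.9% in the same backgrounds. These shares are not matched in precision, with a median standard error of 0.29 against 0.39 and 0.19. The first 200 and the next 200 were not tested against each other.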
